A study of Homo sapiens with 7 samples.

Results

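The regions bound by HNF6, GATA6 and NKX6.1 around 2 genes, LAMA1 and CRB2, were taken from the peak lists of CyT49 cells differentiated in vitro toward pancreas. A region was included when its midpoint lay within 250 kb of the hg19 span of either gene, chr18:6941743-7117813 for LAMA1 and chr9:126118449-126141032 for CRB2. In all, 41 of the 86081 regions in the 4 lists met this rule, 28 at LAMA1 and 13 at CRB2. CyT49 is an established human embryonic stem cell line, and the lists come from different days of 1 differentiation protocol, per the labels. HNF6 was immunoprecipitated on day 5 (gut tube endoderm) and on day 10 (progenitors positive for NKX6.1), GATA6 on day 10 and NKX6.1 on day 13, with 1 library each. Since each list stands for a single library, differences could not be set against replicate error and no test was run. The 3 input libraries were not analysed here. Position alone ties a region to a gene. The lists hold no expression values, so the activity of both genes in these cells, and the disease risk attached to them, could not be checked.

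LAMA1 encodes the alpha 1 chain of laminin, a trimer that is laid down in basement membranes and is read by epithelial cells through integrins and dystroglycan. CRB2 encodes a Crumbs protein, a transmembrane organiser of the apical side of epithelial cells that recruits polarity complexes at cell junctions. Both sides of the epithelium, basal and apical, matter while pancreatic progenitors form a branched tube. Both genes have been put forward as candidates through which type 2 diabetes risk could act in pancreatic progenitors. Of the factors profiled, HNF6 (ONECUT1) and NKX6.1 are homeodomain proteins and GATA6 is a zinc finger protein, and all 3 are needed for normal pancreas or beta cell development. In the RefSeq gene order LAMA1 lies between ARHGAP28, beyond its 3′ end, and LRRC30, upstream of it. CRB2 lies between STRBP, upstream, and DENND1A, beyond its end. The hg19 extents of these neighbours were not used, so a region on the side of a neighbour may lie inside that gene.

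The start of CRB2 is shown as sequence because the gene had no bound region at or near it. RefSeq promoters were matched by symbol for 1 of the 2 genes, CRB2, with 2 alternative starts 12.6 kb apart; LAMA1 had no match. The 250 bases before each start follow (GRCh38.p14, plus strand, chr9:123355947-123356196 for start 1 and chr9:123368529-123368778 for start 2). These positions belong to another build than the peak lists and are not comparable with hg19 positions.
CRB2 start 1: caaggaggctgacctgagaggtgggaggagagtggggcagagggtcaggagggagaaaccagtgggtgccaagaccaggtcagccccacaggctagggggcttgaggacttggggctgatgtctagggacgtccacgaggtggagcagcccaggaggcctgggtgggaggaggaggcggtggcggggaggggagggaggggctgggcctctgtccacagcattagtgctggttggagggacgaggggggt
CRB2 start 2: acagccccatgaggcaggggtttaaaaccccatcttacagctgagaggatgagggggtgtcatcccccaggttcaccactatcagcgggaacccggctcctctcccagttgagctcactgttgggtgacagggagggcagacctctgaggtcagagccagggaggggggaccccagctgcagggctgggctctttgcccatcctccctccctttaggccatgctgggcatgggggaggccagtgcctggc

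Both stretches held somewhat more G and C than most promoters, at 66.8% and 63.2%. The median was 58.0% over all 35116 RefSeq promoters cut to the same length. Of these promoters, 71.7% had less G and C than start 1 and 62.3% had less than start 2. Short motifs of fixed letters were searched on both strands and would be in capitals. ATCAAT (a core of HNF6 sites) was in 0 of the 2 stretches and in 5.58% of all promoters. AGATAA (the core bound by the zinc finger factor) was in 0 of the 2 and in 9.17% of all. TTAATT (a longer motif of NKX6.1 sites) was in 0 of the 2 and in 9.58% of all. The shorter homeodomain core ATTA was not searched, and CRB2 start 1 holds it, in gcattag. A missing match says only that these letters are not in these windows. No sequence of the bound regions is shown, because no hg19 genome was used here.

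HNF6 on day 10 made up 32 of the 41 regions, NKX6.1 on day 13 made up 6 and GATA6 on day 10 made up 3. HNF6 on day 5 had none at either locus. The LAMA1 locus (676 kb with its flanks) held 22 HNF6, 3 GATA6 and 3 NKX6.1 regions. The CRB2 locus (523 kb) held 10 HNF6, 0 GATA6 and 3 NKX6.1 regions. No region at either locus had several rows of the same coordinates.

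**Figure D1:**
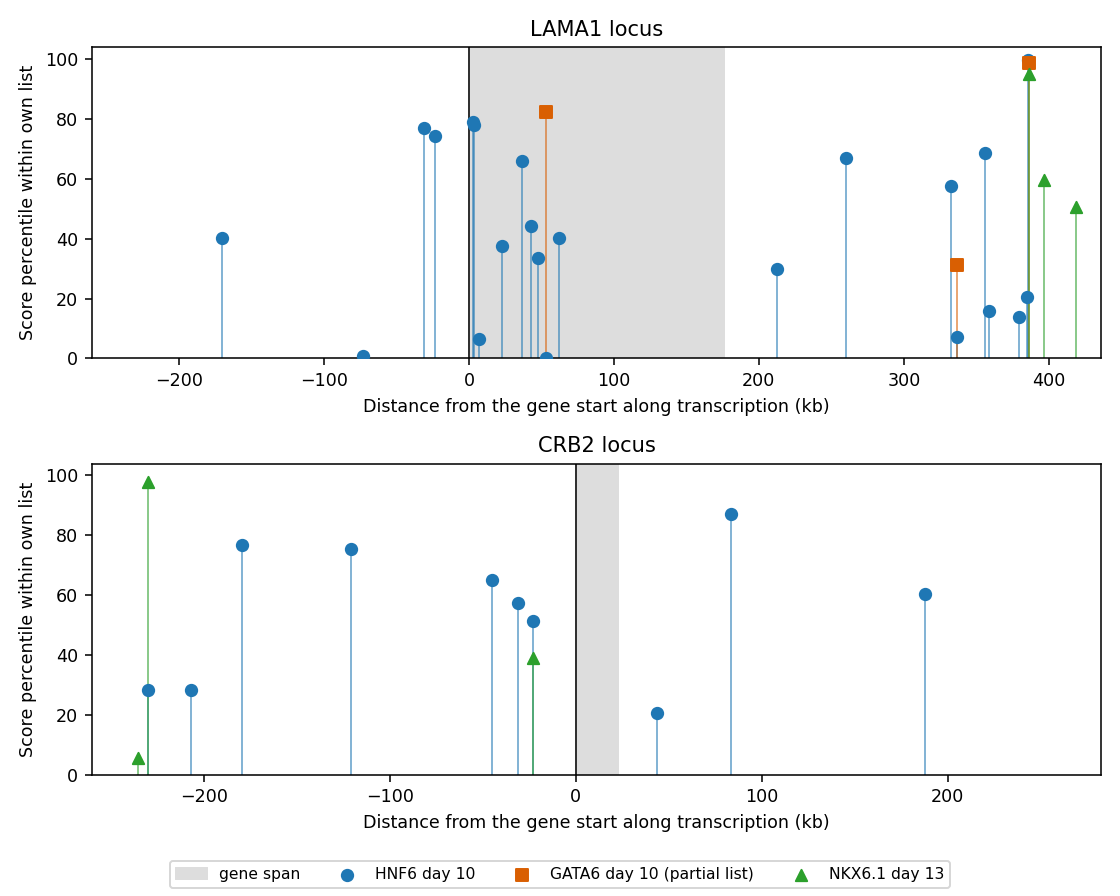
Position and strength of the bound regions at LAMA1 and CRB2. The x axis is the distance of the region's midpoint from the gene start in kb, positive along transcription, the y axis is the percent of the same list with a lower score, and grey marks the gene span. At LAMA1 the 9 HNF6 regions in the span (176 kb) lie within 62.2 kb of the start. The shorter CRB2 span (22.6 kb) holds none.

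The density of HNF6 regions of day 10 was 32.5 per Mb at LAMA1 (exact Poisson 95% interval 20.4 to 49.3) and 19.1 per Mb at CRB2 (9.18 to 35.2), and these intervals overlapped. Among regions above the median score of the list the densities were nearly equal, at 13.3 per Mb for the 9 at LAMA1 and 13.4 per Mb for the 7 at CRB2. The same list held 21.3 per Mb over the whole genome, 28.0 on chromosome 18 and 16.9 on chromosome 9. When the chromosomes were tiled with windows as long as the LAMA1 locus, 19.8% of the 4505 windows held at least 22 HNF6 regions, and the median was 14. For CRB2, 55.6% of 5828 windows held at least 10, which was also the median. LAMA1 thus lay in the upper part of the distribution without being rare in it, and CRB2 lay in its middle. The intervals cover counting error only, since neighbouring regions are not independent and read depth is unknown from the lists.

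**Figure D2:**
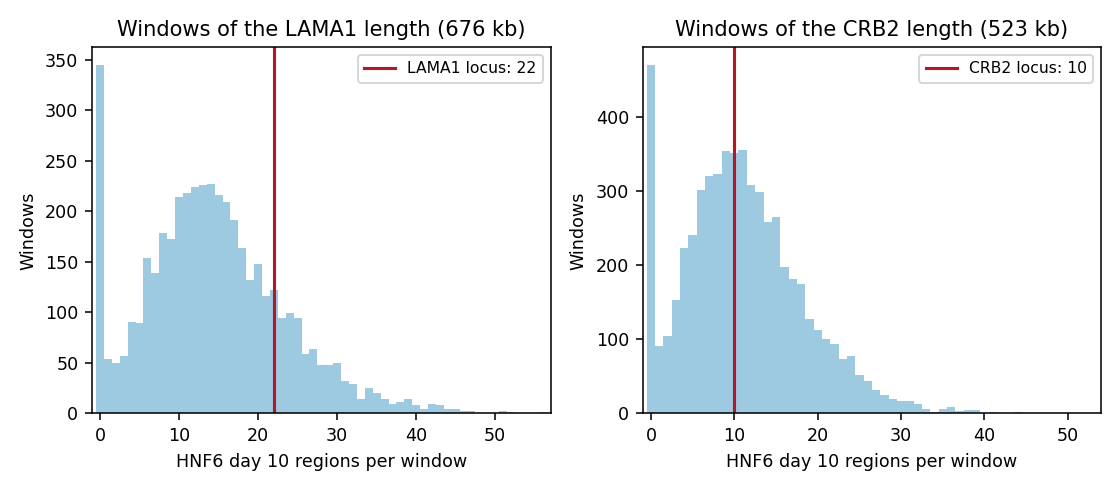
HNF6 regions of day 10 per window, for windows tiled along the chromosomes with the length of the LAMA1 locus (left) and of the CRB2 locus (right). Bars count windows and the red line marks the locus, at 22 regions for LAMA1 and 10 for CRB2.

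NKX6.1 and GATA6 counts were small at both loci. The 3 NKX6.1 regions gave 4.44 per Mb at LAMA1 (0.915 to 13) and 5.74 per Mb at CRB2 (1.18 to 16.8), against 4.79 per Mb in the whole list. Of the windows of the LAMA1 length 55.9% held at least 3 NKX6.1 regions, and of those of the CRB2 length 43.6% did. For GATA6, 3 regions at LAMA1 gave 4.44 per Mb (0.915 to 13) against 2.06 per Mb in the list, and 19.7% of windows held at least as many. The absence of GATA6 at CRB2 was shared by 43.6% of the windows of that length.

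The GATA6 list is partial. Its peak numbers run to 19404, only 6285 of them are listed, and each listed region overlaps an HNF6 region of day 10 (100% of the list). That a listed GATA6 region overlaps HNF6 is thus a property of the list and no result about these loci. Numbers follow position along the chromosome. Between the GATA6 regions listed as 7688 and 7692, both at LAMA1, 3 numbered peaks are missing. They would lie between chr18:6781516 and chr18:7064270, a stretch that takes in the 3′ part of the gene. A further 6 numbers are missing between the region in the gene and the next listed one at chr18:7735727, a stretch that takes in the gene start and the upstream flank, and 2 are missing before the first region of the locus. Up to 11 GATA6 peaks at LAMA1 were thus not analysed here. Across the CRB2 locus, 2 numbers are missing between the listed regions that flank it, so up to 2 GATA6 peaks there were not analysed here.

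HNF6 on day 5 had no region near either gene. The nearest to the LAMA1 start lay 3.86 Mb away at chr18:3261845-3262053 (score 217). For CRB2 the nearest was chr9:127355935-127356220 (score 77), 1.24 Mb away. The day 5 list holds only 250 regions, 3 of them on chromosome 18 and 7 on chromosome 9. Among the tiled windows, 95% of the LAMA1 length and 96% of the CRB2 length held no day 5 region either.

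The LAMA1 gene itself carried a dense run of HNF6 regions on day 10 in the part near its start. All 9 HNF6 regions within the span lay between chr18:7055459 and chr18:7115270, a stretch of 59.8 kb that corresponds to 150 regions per Mb. The remaining 3′ part of the gene held none. Most of the run was weak, since 3 of the 9 regions scored above the median of the list and 6 did not. Of all runs of 9 neighbouring HNF6 regions in the list, 0.899% were as short. This run was picked out after its values had been seen.

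The strongest HNF6 regions of the gene sat just inside the start. The nearest, chr18:7114996-7115270, was 2.7 kb downstream of the start, with a score of 200, at percentile 79.0 of the list. The percentile is the percent of regions in the same list with a lower score. Beside it lay chr18:7113978-7114398 at 3.6 kb (score 192, percentile 78.2, 421 bp wide) and the weak chr18:7111026-7111209 at 6.7 kb (score 28, percentile 6.5). These 3 regions fell within 4.25 kb, and 1.97% of all runs of 3 neighbouring HNF6 regions were as short. They are part of the run described above and were likewise picked out after their values had been seen. The other 6 regions of the gene lay 22.8 to 62.2 kb from the start with scores of 14 to 121. Whether these regions are intronic or exonic was not determined, since no hg19 exon annotation was used here.

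Upstream of LAMA1, 4 HNF6 regions were found, and the pair closest to the gene had scores close to those of the pair inside its start. These were chr18:7140941-7141230 at 23.3 kb (score 166, percentile 74.4) and chr18:7148526-7148833 at 30.9 kb (score 184, percentile 77). The others, at 73.0 kb and 170.4 kb upstream, had scores of 17 and 66. By density, HNF6 regions numbered 51.1 per Mb in the gene span, 16.0 per Mb in the 250 kb upstream and 36.0 per Mb in the 250 kb beyond the end.

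Between the run in the gene and the regions beyond its end was a long interval without HNF6, from chr18:6905490 to chr18:7055459. At 150 kb it was among the longer gaps of the list, of which 5.0% were as long (median 23.1 kb). NKX6.1 was missing from a still longer interval. From chr18:6731868 to chr18:7593305, or 861 kb, the list had no NKX6.1 region, and 2.36% of the gaps between NKX6.1 regions were as long (median 112 kb). The whole LAMA1 gene and all of its upstream flank within the 250 kb fall in this interval. Both gaps were picked as the longest in their list that reach the gene. Each gap counted once in these shares, whereas a gene is likelier to fall in a long gap than in a short one. The shares thus understate how often a gene meets gaps of this length.

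The strongest binding at the LAMA1 locus was far beyond the gene's 3′ end, on the side of ARHGAP28. There HNF6 and GATA6 of day 10 and NKX6.1 of day 13 were found together, 385.9 kb from the LAMA1 start and 209.8 kb from its end. The HNF6 region chr18:6731604-6732272 had a score of 2787 and was ranked 72 of 64919. The GATA6 region chr18:6731596-6732007 had a score of 1452 and was ranked 84 of 6285. The NKX6.1 region chr18:6731652-6731868 had a score of 248 and was ranked 712 of 14627. The 217 bp of the NKX6.1 region lay wholly inside both others, 178 bp from the HNF6 midpoint.

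This was the only region of all 3 factors at the 2 loci. In the whole list 1.15% of the HNF6 regions, or 745, overlapped both other factors. Of these 745, 23 had a higher HNF6 score. When each was represented by the lowest of its 3 score percentiles, the LAMA1 region stood at 95.1 against a median of 37.2, and 9 of the 745 stood higher. It was therefore strong in every one of the 3 lists, not in HNF6 alone. A weaker HNF6 region, chr18:6732734-6733083 (score 42), lay 0.97 kb from it, and 2 further NKX6.1 regions lay further out, at chr18:6720979-6721083 (score 64) and chr18:6698917-6699001 (score 56).

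The other shared regions at LAMA1 joined GATA6 to weak HNF6 signals. The overlap itself is given by the GATA6 list, so only the scores describe these regions. Within the gene, 53.2 kb from the start, GATA6 chr18:7064270-7064626 had a score of 315 (percentile 82.4), whereas the overlapping HNF6 region chr18:7064469-7064702 had a score of 14, just above the lowest score in the list (13) and at percentile 0.2. Of 1123 HNF6 regions with a GATA6 region at least that strong, 3 (0.267%) had an HNF6 score as low, this region included. The median HNF6 percentile of the 1123 was 88.5. The share was worked out with the scores already known, so it is no measure of rarity. Beyond the gene end, 336.4 kb from the start, GATA6 chr18:6781247-6781516 (score 65, percentile 31.3) overlapped HNF6 chr18:6781341-6781542 (score 29, percentile 7.3). For this pair the same share was 191 of 4340 (4.4%). Midpoints of HNF6 and GATA6 lay 138 bp and 60 bp apart at these regions. Scores of different lists are not on a shared scale, so percentiles describe only the standing of each region in its own list.

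Of the 22 HNF6 regions at LAMA1, 3 overlapped a listed GATA6 region, or 13.6% (Wilson 95% interval 4.75 to 33.3), against 9.66% of the whole HNF6 list. NKX6.1 was at 1 of 22, or 4.55% (0.807 to 21.8), against 3.2%. From the NKX6.1 side, 1 of 3 regions overlapped HNF6 and GATA6, where 14.3% and 5.18% of that list did. From the GATA6 side, 1 of 3 overlapped NKX6.1, against 11.8%. These shares are near the background or rest on 3 regions, so none sets the locus apart.

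**Figure D3:**
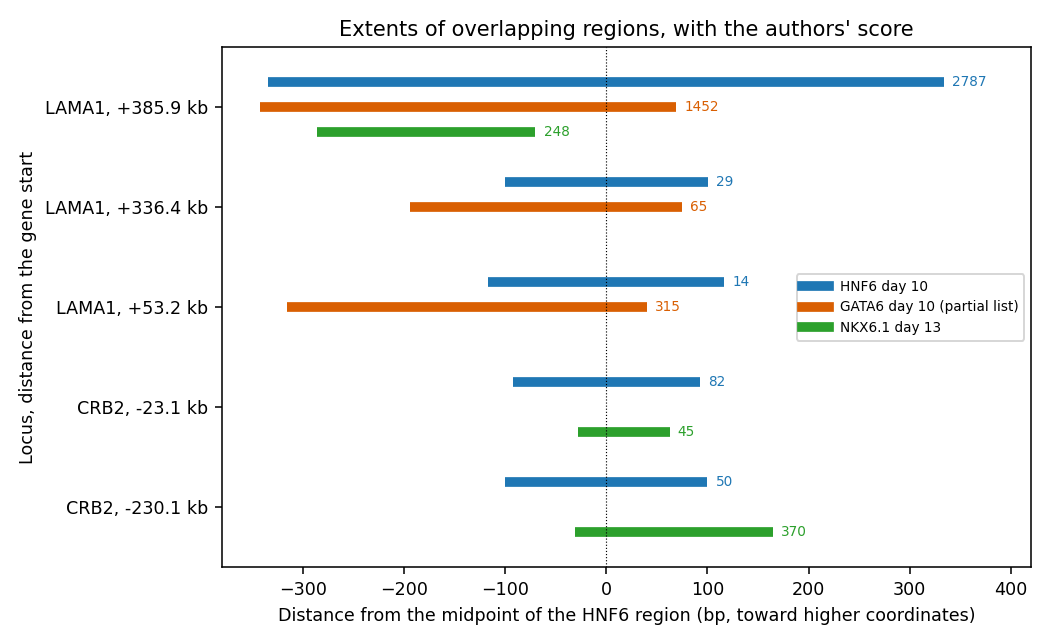
Extents of the 5 regions found in at least 2 lists, drawn as bars in bp around the midpoint of the HNF6 region of day 10, with the authors' score beside each bar. Rows are named by locus and by distance from the gene start in kb. The NKX6.1 bar of the LAMA1 region at 385.9 kb lies inside both other bars, and its HNF6 score of 2787 compares with 14 to 82 at the other 4 regions.

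Within the 176 kb span of LAMA1 lay 9 of the 22 HNF6, 1 of the 3 GATA6 and 0 of the 3 NKX6.1 regions. At CRB2, with a span of only 22.6 kb, every region lay outside the gene. No region of any list touched the span or its surroundings from chr9:126095477 to chr9:126162160, 66.7 kb in which the start lies 23 kb from the left edge. Gaps of this length are common, with 19.9% of all gaps between HNF6 regions as long. The whole 22.6 kb gene lies in it, and so do both starts shown above if either is the hg19 start, since they are 12.6 kb apart. For NKX6.1 the empty interval ran from chr9:126095447 to chr9:126440429, or 345 kb, and 15.2% of the gaps in its list were as long. These were again the longest gaps that reach the gene, so the limit given for the LAMA1 gaps holds here too.

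The region nearest to the CRB2 start carried both HNF6 and NKX6.1. It lay 23.1 kb upstream, with HNF6 at chr9:126095292-126095477 (score 82, percentile 51.4) and NKX6.1 at chr9:126095357-126095447 (score 45, percentile 39.0). The NKX6.1 region lay wholly inside the HNF6 region, with midpoints 18 bp apart. HNF6 regions without a partner followed at 31.2 kb (chr9:126087118-126087359, score 97) and 44.9 kb upstream (chr9:126073421-126073720, score 120, percentile 65.0). The 3 together form a small group of middling strength ahead of the gene.

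The strongest NKX6.1 region of both loci was at the far upstream end of the CRB2 locus, on the side of STRBP. At chr9:125888354-125888550, 230.0 kb from the start, its score of 370 was ranked 302 of 14627, at percentile 97.9. The HNF6 region it overlapped, chr9:125888285-125888485, was weak, with a score of 50 and percentile 28.4. Among 105 HNF6 regions with NKX6.1 at least that strong, 13 (12.4%), this region included, had an HNF6 percentile as low, and the median was 83.9. A weak NKX6.1 region without a partner, chr9:125882871-125882973 (score 19), was 5.53 kb away.

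Where HNF6 was strongest at CRB2, no other factor was listed. The strongest HNF6 region, chr9:126202012-126202387, lay 83.8 kb from the start and 61.2 kb beyond the gene end, on the side of DENND1A, with a score of 317 and percentile 87.1. The next were chr9:125938866-125939133 (score 181, percentile 76.7) and chr9:125997414-125997784 (score 173, percentile 75.5), 179.4 and 120.8 kb upstream. The fifth was chr9:126306351-126306605 (score 105, percentile 60.5), 188.0 kb from the start. None of the 10 reached the highest decile of the list, whereas 1 of 22 at LAMA1 did. The median percentile was 59.0 at CRB2 and 40.3 at LAMA1, with ranges of 20.5 to 87.1 and 0.2 to 99.9.

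Of the 10 HNF6 regions at CRB2, 2 overlapped NKX6.1, or 20% (Wilson 5.67 to 51.0), against 3.2% in the list, and from the NKX6.1 side 2 of 3 overlapped HNF6, against 14.3%. The 2 shared regions are the whole basis of these shares. GATA6 was at 0 of 10 (0 to 27.8) in its partial list. With any partner, the share was 20% at CRB2 and 13.6% at LAMA1, against 11.7% of the HNF6 list. HNF6 and NKX6.1 differ in day, antibody and library, which cannot be told apart in these overlaps.

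The 5 HNF6 regions with a partner at these loci stood at percentiles 0.2, 7.3, 28.4, 51.4 and 99.9, with a median of 28.4. In the whole list, HNF6 regions with a partner had a median percentile of 81.0. The HNF6 regions nearest the LAMA1 start, at percentiles 78.2 and 79.0, and the strongest at CRB2 had no listed partner.

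At the 250 kb border, the outermost included regions were NKX6.1 chr18:6698917-6699001, 242.8 kb from the LAMA1 span, and NKX6.1 chr9:125882871-125882973, 235.5 kb from the CRB2 span. The nearest HNF6 regions outside were weak, at 272.8 kb from LAMA1 (score 30) and 266.4 kb from CRB2 (score 38). The rule leaves out a stronger group 300.0 kb beyond the CRB2 end, at chr9:126440711-126441270. There GATA6 had a score of 2353 (percentile 99.6), HNF6 722 (percentile 95.6) and NKX6.1 55 (percentile 48.9). Beside it, 299.5 kb from the span, lay a stronger NKX6.1 region, chr9:126440429-126440571 (score 134, percentile 86.5). At LAMA1 the nearest shared region left out, chr18:6606738-6607149, lay 334.8 kb from the span. It had HNF6 with a score of 351 (percentile 88.7) and GATA6 with 38 (percentile 10.9).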

How the data were processed

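Peak lists of 4 libraries were used, 1 per factor and day, and groups were taken from the sample titles. Per the submitters' processing notes, the tools were MACS2 2.1.1.20160309 and Bowtie2 2.3.4.1 with build hg19, with no settings named. In each deposited list the authors gave every peak a whole-number score of at least 13, on a scale not given in the sources used here. They served for ranks within a list alone. The protocol text of every sample names an NKX6.1 antibody, per the labels' protocols, while the antibody characteristic of each peak list matches its title. A lower limit on scores sets which weak regions are listed, and a deeper library would list more.

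Rows with equal coordinates were merged to the highest score. For HNF6 this left 250 regions on day 5 and 64919 on day 10, for GATA6 6285 and for NKX6.1 14627. Regions that shared at least 1 bp counted as overlapping (pandas 2.3.3 in Python 3.11.15), which equalled bedtools 2.31.1 for all pairs of lists. Intervals are Wilson (statsmodels 0.14.6) or exact Poisson (scipy 1.17.1). Windows were tiled end to end on chromosomes 1 to 22, X and Y, whose lengths were the farthest listed position. LAMA1 was taken as transcribed from the minus strand and CRB2 from the plus strand. Named regions are those of at least 2 lists, the 5 strongest per list and locus, the nearest to each gene start and those at the border. Members, lists and rules were chosen with earlier results of these data known. Planted overlaps in simulated data were recovered by the code.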

Additional observations from a re-analysis of the deposited data

How the results depend on the processing

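Of 74 alternative values, 52 stayed within 1.5 times the reported count and 22 did not. Part of the 52 could not move. No rows were merged at the loci, so unmerged rows give the same counts, and counts of 0 stay 0 under stricter settings. The tally is therefore no measure of robustness. With a reach of 100 kb, LAMA1 held 14 HNF6, 1 GATA6 and 0 NKX6.1 regions and CRB2 5 HNF6 and 1 NKX6.1, with 1 region of several factors at each. With 500 kb, LAMA1 held 38 HNF6 and 5 GATA6 regions and CRB2 17 HNF6, 2 GATA6 and 8 NKX6.1, with 5 and 4 regions of several factors. The fewer or further kilobases account for these by construction. With scores above the list median, LAMA1 had 9 HNF6 regions (3 in the gene) and 1 region of several factors, and CRB2 had 7 HNF6 regions, 1 NKX6.1 region and 0 of several factors. With scores of at least 50, regions of several factors numbered 1 at LAMA1 and 1 at CRB2, and CRB2 had 1 NKX6.1 region. Unmerged rows, membership by any overlap, a required overlap of 50%, a limit of 200 bp between midpoints and gaps of up to 1 kb moved no count by over 1.5 times. Read depth is unknown, so weak regions near the lowest listed score are the least certain. No paired analysis was possible because each group had 1 library and no test was run.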
